A study of Mus musculus with 16 samples.

Results

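The genes described here are cyclin-dependent kinase (CDK) inhibitors and the pocket proteins: Cdkn2a, Cdkn2b, Cdkn2c and Cdkn2d of the INK4 family, Cdkn1b and Cdkn1c of the CIP/KIP family, and Rb1, Rbl1 and Rbl2. They were found as the probes whose gene name in the scanner files was one of these 9 symbols, which gave 13 probes, at 22 spots, of 55681 distinct probes at 59305 spots on each array. The scanner files held 34836 gene names, and 20317 genes were tested, all 9 members among them. One-color Agilent arrays were hybridized with RNA of myoblasts from male C57Bl/6J mice aged 11 to 13 weeks. Myoblasts were grown either dispersed or on isolated myofibers, and RNA was taken at 48 or at 72 hr, which gave 4 groups of 4 arrays.

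The 48-hr dispersed replicates were numbered 1 to 4 and the 72-hr ones 5 to 8, each from 1 mouse. The 72-hr myofiber-associated replicates were numbered 1 to 4 and the 48-hr ones 7, 8, 9 and 10+11, each from a preparation of 2 mice, except that replicate 10+11 pooled 2 such preparations. Values are given in the order of these numbers. Myofiber-associated myoblasts were the cells that came off the fibers in washes and a short trypsin digestion and stayed in the supernatant when a slow spin took the stripped fibers down. No step sorted the cells by a marker. All 8 myofiber-associated arrays were on 1 slide and all 8 dispersed arrays on the other, so an effect of culture cannot be told apart from one of slide. Columns 1 and 2 of either slide held the 72-hr arrays, and columns 3 and 4 those of 48 hr. An effect of time thus cannot be told apart from one of slide column.

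INK4 proteins bind CDK4 and CDK6 and keep D-type cyclins from activating them, whereas CIP/KIP proteins bind complexes of cyclins with several kinases, CDK2 among them. Unphosphorylated pocket proteins bind E2F transcription factors and hold S-phase genes in check until cyclin-dependent kinases phosphorylate them. In skeletal muscle, pocket proteins and CDK inhibitors are known for their part in the exit of myoblasts from the cell cycle before they differentiate.

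The label of myoblasts was compared with marker genes. All 8 myoblast markers (Pax7, Myod1, Myf5, Des, Cdh15, Itga7, Vcam1 and Chrna1) were well above background on all 16 arrays. The log2 of their summed signal was 17.35 to 17.53 in dispersed myoblasts at 48 hr, 17.58 to 17.99 at 72 hr, 17.51 to 17.97 in myofiber-associated myoblasts at 48 hr and 18.16 to 18.28 at 72 hr. The brightest probe was that of Chrna1 in the other groups and that of Itga7 or Des in myofiber-associated myoblasts at 48 hr, where Des had a mean of 15.99, beside 11.95 in dispersed myoblasts. Of the 8 markers 4 were lower and 1, Des, was higher in that comparison between cultures. Markers of adult muscle fibers, which a pure myoblast sample should lack, were measured as well. All 10 of them (Myh1, Myh2, Myh4, Ckm, Pvalb, Mb, Atp2a1, Actn3, Tnnt3 and Mybpc2) were well above background on all 16 arrays. The log2 of their summed signal was 20.78, 20.43, 20.72 and 20.16 in myofiber-associated myoblasts at 48 hr, with the brightest probe that of Tnnt3 or Myh4. It was 18.23, 19.68, 17.75 and 20.08 in the same culture at 72 hr, with the brightest probe that of Myh4. In dispersed myoblasts it was 15.01, 14.46, 13.84 and 13.68 at 48 hr and 13.19, 13.09, 12.87 and 12.98 at 72 hr. The 8 myofiber-associated arrays thus lay above all 8 dispersed arrays, and in that culture replicates 2 and 4 at 72 hr came close to the 48-hr arrays. The label therefore covers samples with RNA of adult fiber genes, most of it in myofiber-associated myoblasts, and in bulk samples fewer cells of a type and less RNA per cell cannot be told apart.

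Signals are given as log2 of the normalized fluorescence intensity, so a difference of 1 is a factor of 2. A gene passed the test at an adjusted p under 0.01 (limma, two-sided, Benjamini-Hochberg over the 20317 genes). All 13 probes were well above background on all 16 arrays, and no spot was saturated. The plot of signals by group shows all 9 members on every array.

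**Figure D1:**
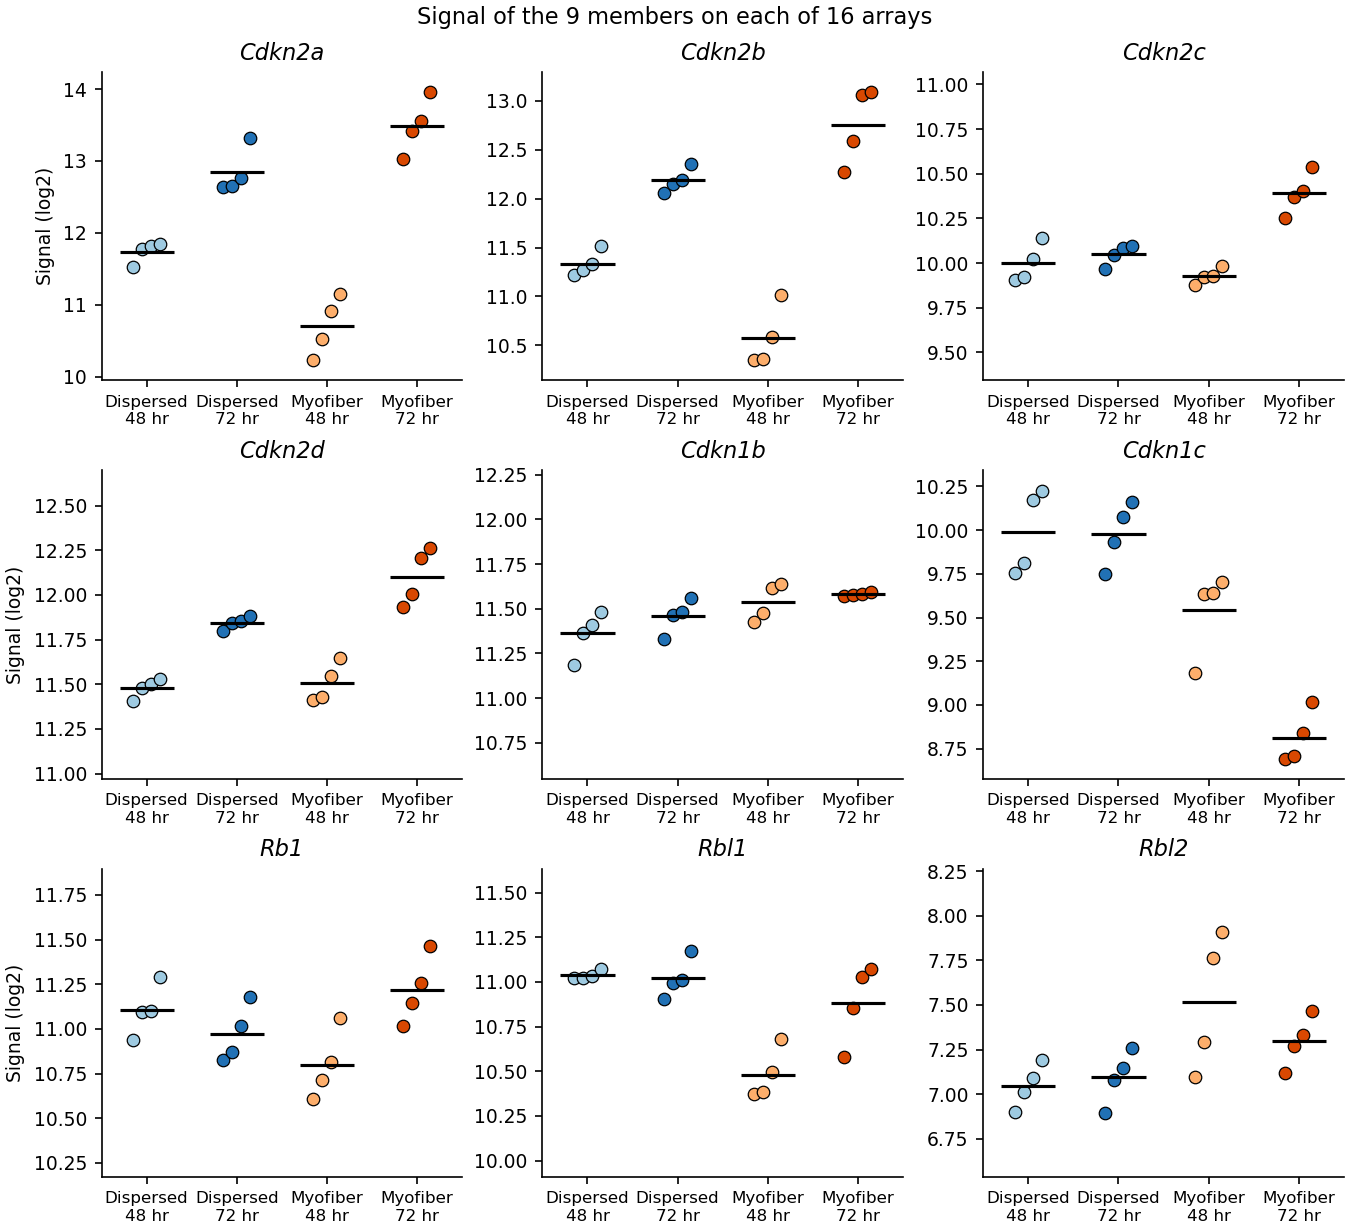
Log2 signal of the probe that stands for each of the 9 members, by group, with 1 point for each of 16 arrays and a bar at the mean of 4. Cdkn2a and Cdkn2b were lowest in myofiber-associated myoblasts at 48 hr, and Cdkn1c was lowest there at 72 hr, at 8.69 to 9.02.

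Cdkn2a encodes p16INK4a, an inhibitor of CDK4 and CDK6, and from a start farther upstream ARF, which keeps MDM2 from p53. Cdkn2b, which encodes the INK4 protein p15, is its neighbor on chromosome 4. RefSeq (build GRCm38.p6) placed 2 starts in Cdkn2a, 12427 bases apart, and the Cdkn2b start 16413 bases from the nearer of them, all on the minus strand. The 250 bases before each of these starts are printed here because the signals of both genes moved together, at chr4:89294620-89294869, chr4:89282193-89282442 and chr4:89311033-89311282. Capitals mark a match to a searched motif: TTTCCCGC, an E2F motif, in the first and TTTGAA, the cell cycle homology region, in its reverse complement, in the third.
Cdkn2a start 1: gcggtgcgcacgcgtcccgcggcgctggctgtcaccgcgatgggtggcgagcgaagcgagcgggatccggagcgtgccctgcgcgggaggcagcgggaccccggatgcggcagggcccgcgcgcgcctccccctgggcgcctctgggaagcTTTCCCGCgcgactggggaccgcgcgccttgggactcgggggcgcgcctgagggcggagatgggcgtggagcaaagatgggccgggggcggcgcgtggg
Cdkn2a start 2: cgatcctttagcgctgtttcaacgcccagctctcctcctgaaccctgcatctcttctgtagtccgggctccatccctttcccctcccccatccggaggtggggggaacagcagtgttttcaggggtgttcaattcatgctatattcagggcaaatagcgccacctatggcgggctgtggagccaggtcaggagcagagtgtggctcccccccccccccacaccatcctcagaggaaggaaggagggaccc
Cdkn2b: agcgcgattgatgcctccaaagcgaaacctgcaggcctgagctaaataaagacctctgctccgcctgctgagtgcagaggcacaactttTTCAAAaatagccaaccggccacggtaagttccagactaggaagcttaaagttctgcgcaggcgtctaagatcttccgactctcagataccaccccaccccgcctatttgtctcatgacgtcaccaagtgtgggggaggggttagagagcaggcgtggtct
The match in the first sequence lay at -99 to -92 from the start, and that in Cdkn2b at -161 to -156. In a window of 300 bases around the start, GC made up 77.0% of bases at the upstream Cdkn2a start, 60.3% at the downstream one and 57.7% at the Cdkn2b start, beside a median of 52.7% over 32851 windows.

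Cdkn2a had signals of 11.81, 11.77, 11.53 and 11.84 in dispersed myoblasts at 48 hr and 12.64, 12.65, 12.77 and 13.32 at 72 hr. In myofiber-associated myoblasts they were 10.23, 10.92, 10.52 and 11.14 at 48 hr and 13.56, 13.42, 13.96 and 13.03 at 72 hr. In both cultures each 72-hr array lay above each 48-hr array. From the lowest, the groups ran from myofiber-associated at 48 hr (mean 10.70, SD 0.41) over dispersed at 48 hr (11.74, SD 0.14) and dispersed at 72 hr (12.85, SD 0.32) to myofiber-associated at 72 hr (13.49, SD 0.38), and in this order only the last pair overlapped. Cdkn2a rose 2.15-fold in dispersed myoblasts (log2 change 1.11, 95% CI 0.75 to 1.46, adjusted p = 0.00167). It rose 6.90-fold in myofiber-associated myoblasts (log2 change 2.79, 95% CI 2.22 to 3.35, adjusted p = 0.000866). The difference of these changes, dispersed minus myofiber-associated, was -1.68 (95% CI -2.34 to -1.02) and passed the test as well, with an adjusted p of 0.00471 over 16 arrays. When 1 array at a time was left out, it was past the threshold in 8 of 16 fits, with values of -1.84 to -1.52 and adjusted p from 0.00165 to 0.0129. It missed the threshold without dispersed replicate 1, 2, 4, 5, 6 or 7, or without myofiber-associated replicate 9 at 48 hr or 1 at 72 hr, and with no filter on low signal (adjusted p = 0.0104). At 48 hr the signal differed by -1.04, myofiber-associated minus dispersed (adjusted p = 0.00209), and at 72 hr the change of 0.64 missed the threshold (adjusted p = 0.0430). Both Cdkn2a probes match the p16INK4a and the ARF transcript, so these cannot be told apart. The other Cdkn2a probe rose by 1.24 in dispersed myoblasts, and the difference of its changes was -1.77 (adjusted p over probes 0.00121).

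Cdkn2b had signals of 11.27, 11.33, 11.22 and 11.51 in dispersed myoblasts at 48 hr and 12.19, 12.15, 12.06 and 12.35 at 72 hr. Those of myofiber-associated myoblasts were 10.36, 10.59, 10.35 and 11.01 at 48 hr and 13.06, 12.59, 13.09 and 12.28 at 72 hr. The groups stood in the same order as for Cdkn2a, and again only the 72-hr groups overlapped, since replicate 4 of the myofiber-associated myoblasts lay below replicate 8 of the dispersed ones. The group means were 10.58 (SD 0.31), 11.34 (SD 0.13), 12.19 (SD 0.12) and 12.76 (SD 0.39) from the lowest. Cdkn2b rose 1.81-fold in dispersed myoblasts (log2 change 0.85, 95% CI 0.66 to 1.04, adjusted p = 0.000298). In myofiber-associated myoblasts it rose 4.53-fold (log2 change 2.18, 95% CI 1.67 to 2.69, adjusted p = 0.00125). The difference of the changes was -1.33 (95% CI -1.86 to -0.79, adjusted p = 0.00533), past the threshold in 5 of 16 fits with 1 array left out (-1.49 to -1.22, adjusted p 0.00112 to 0.0147). Those were the fits without dispersed replicate 8 or without myofiber-associated replicates 8, 10+11, 2 or 4. The Cdkn2b call in the difference was also lost with the slide row as a block (adjusted p = 0.0111) and with no filter on low signal (adjusted p = 0.0117). Between cultures, myofiber-associated minus dispersed, the signal changed by -0.76 at 48 hr (adjusted p = 0.00327), a call lost without myofiber-associated replicate 7 or dispersed replicate 2 or 4, with adjusted p of 0.0110, 0.0109 and 0.0116. At 72 hr the change was 0.57 and missed the threshold (adjusted p = 0.0352), but without myofiber-associated replicate 4 it was 0.73 and passed (adjusted p = 0.00612). It passed in that 1 of 8 fits with 1 array left out, with adjusted p up to 0.088. The other Cdkn2b probe changed by 0.89 in the dispersed culture and by 2.26 in the myofiber-associated one.

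The adult fiber markers ran opposite to both genes in the myofiber-associated culture. Over the 8 myofiber-associated arrays, ordered from the lowest summed fiber signal to the highest, the brighter Cdkn2a probe ran from its highest signal to its lowest, and so did the brighter Cdkn2b probe apart from the arrays with the 2 highest fiber sums. The other Cdkn2a probe, in the same order, read 9.82, 9.46, 9.59 and 9.09 at 72 hr and then 6.44, 6.80, 6.49 and 6.24 at 48 hr, so it did not keep this order within either time. At 72 hr, replicates 3 and 1, with fiber sums of 17.75 and 18.23, held the highest signals of the brighter Cdkn2a probe, and replicates 2 and 4, with 19.68 and 20.08, the lowest. On the other probe replicate 2 lay above replicate 1. Replicate 4 at 72 hr and replicate 10+11 at 48 hr had fiber sums of 20.08 and 20.16, and Cdkn2a signals of 13.03 and 11.14. With replicates 2 and 4 left out, an alternative chosen after seeing the data, the change in myofiber-associated myoblasts was 3.06 for Cdkn2a and 2.50 for Cdkn2b. Of the 10 fiber markers, 1 fell past the threshold in that culture (Myh2, at -4.68) and 6 in dispersed myoblasts, while at an unadjusted p under 0.05 limma gave falls of 10 and 9, and the median change of the list was -2.03 and -1.94. Fibers' part in the changes of the members was not tested.

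**Figure D2:**
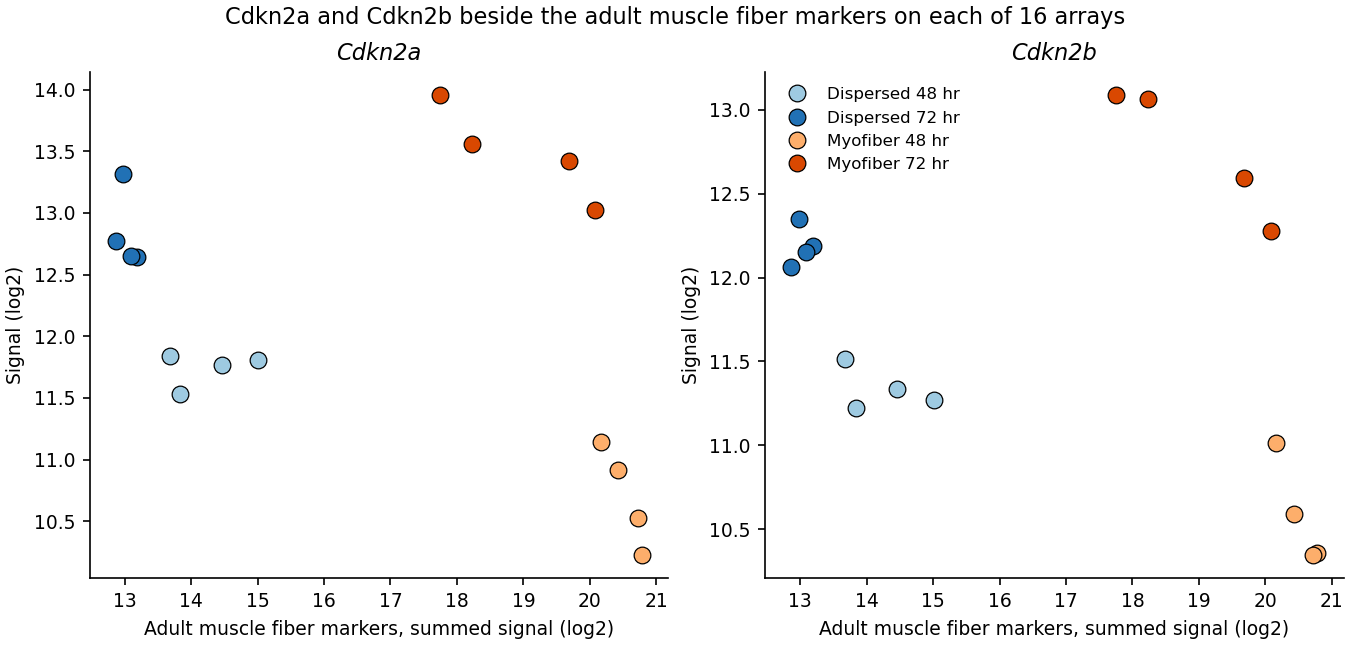
Log2 signal of the brighter probe of Cdkn2a and of Cdkn2b against the log2 of the summed signal of 10 adult muscle fiber markers, with 1 point for each of 16 arrays, colored by group. At 72 hr the myofiber-associated arrays with fiber sums of 19.68 and 20.08 held the lowest signals of these probes in their group, which the other Cdkn2a probe did not show for replicate 2 (9.59).

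Cdkn2c encodes p18, an INK4 protein, and had signals of 10.14, 9.92, 9.91 and 10.02 in dispersed myoblasts at 48 hr and 10.05, 10.08, 9.97 and 10.10 at 72 hr. On the myofiber-associated arrays they were 9.98, 9.92, 9.88 and 9.93 at 48 hr and 10.53, 10.37, 10.41 and 10.25 at 72 hr. The 72-hr myofiber-associated arrays lay above all the other arrays, whose 3 groups overlapped. Between cultures at 72 hr, Cdkn2c was 1.27-fold higher in myofiber-associated myoblasts (log2 change 0.34, adjusted p = 0.00755). That call was lost in 7 of 8 fits with 1 array left out, all but the one without myofiber-associated replicate 4, with adjusted p from 0.00436 to 0.0281. It was also lost under 75th percentile scaling (0.30, adjusted p = 0.0125) and with no filter on low signal (adjusted p = 0.0134). The change with time in myofiber-associated myoblasts, 0.46, missed the threshold (adjusted p = 0.0111), although the groups did not overlap, and in dispersed myoblasts the change was 0.05 (adjusted p = 0.600). Between cultures at 48 hr it was -0.07 (adjusted p = 0.436). The difference of the changes was -0.41 (adjusted p = 0.0176). Without myofiber-associated replicate 4 the change with time in that culture and the difference passed, at 0.51 (adjusted p = 0.00918) and -0.46 (adjusted p = 0.00586). In the other fits with 1 array left out neither passed, with adjusted p up to 0.0389 and 0.0418. At 72 hr myofiber-associated replicates 3 and 1, with adult fiber sums of 17.75 and 18.23, had higher Cdkn2c signals than replicates 2 and 4, with 19.68 and 20.08. At 48 hr Cdkn2c did not follow the fiber sums, and the part of fibers in its changes was not tested.

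Cdkn2d encodes p19, the remaining INK4 protein. Its signals in dispersed myoblasts were 11.40, 11.50, 11.53 and 11.48 at 48 hr and 11.84, 11.85, 11.88 and 11.80 at 72 hr. In myofiber-associated myoblasts they were 11.65, 11.41, 11.43 and 11.54 at 48 hr and 12.21, 11.93, 12.26 and 12.01 at 72 hr. The 48-hr groups overlapped (means 11.48, SD 0.05, and 11.51, SD 0.11), dispersed myoblasts at 72 hr came next (11.84, SD 0.03) and myofiber-associated myoblasts at 72 hr were highest (12.10, SD 0.16), with no overlap among these 3 levels. Cdkn2d rose 1.29-fold in dispersed myoblasts (log2 change 0.36, 95% CI 0.27 to 0.46, adjusted p = 0.000677). In myofiber-associated myoblasts it rose 1.51-fold (log2 change 0.59, 95% CI 0.35 to 0.84, adjusted p = 0.00940), a call that was lost in all 8 fits with 1 array left out, with adjusted p from 0.0107 to 0.0361. It was also lost with no filter (adjusted p = 0.0175), with the filter on signal well above background (adjusted p = 0.0115) and with the slide row as a block (adjusted p = 0.0196). At 72 hr replicates 3 and 1, with adult fiber sums of 17.75 and 18.23, had higher Cdkn2d signals than replicates 2 and 4, with 19.68 and 20.08. At 48 hr Cdkn2d did not follow the fiber sums and was highest in replicate 7, which had the highest sum. The part of fibers in its change was not tested. The difference of the changes was -0.23 and missed the threshold (adjusted p = 0.158). Between cultures Cdkn2d changed by 0.03 at 48 hr (adjusted p = 0.754) and by 0.26 at 72 hr (adjusted p = 0.0382), short of the threshold although the 72-hr groups did not overlap. Without myofiber-associated replicates 2 and 4, an alternative chosen after seeing the data, the 72-hr change was 0.39 and passed (limma, adjusted p = 0.00293).

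Cdkn1b encodes p27, an inhibitor of CDK2 complexes that is controlled to a large extent by its degradation, which RNA does not show. Its brighter probe ranged from 11.19 to 11.64 over the 16 arrays, with group means of 11.36 and 11.46 for dispersed myoblasts (48, then 72 hr) and 11.54 and 11.58 for myofiber-associated ones, and neighbors in this order overlapped. At 72 hr all the myofiber-associated arrays lay above all the dispersed ones. No comparison of it passed the test, and its changes lay between 0.04 and 0.18. The dimmer Cdkn1b probe, which is annotated to an Ensembl transcript that the brighter one matches too but not to its RefSeq transcript, gave other values. Its signals were 6.58, 6.41, 6.63 and 6.46 in dispersed myoblasts at 48 hr and 5.28, 5.73, 5.40 and 5.55 in myofiber-associated myoblasts at 48 hr, with no overlap. Between cultures at 48 hr the dimmer probe changed by -1.03 (adjusted p over probes 0.000144) and the brighter one by 0.18 (0.130). The probes thus differed in direction at 48 hr, and they did so at 72 hr (-0.43 for the dimmer probe and 0.12 for the brighter) and in the difference of the changes (-0.60 and 0.05). With time in myofiber-associated myoblasts the dimmer probe changed by 0.70 (adjusted p over probes 0.0263) and the brighter one by 0.04.

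Cdkn1c encodes p57, the other CIP/KIP protein here, and is an imprinted gene. Its signals in dispersed myoblasts were 9.81, 10.23, 9.75 and 10.17 at 48 hr and 9.75, 10.16, 10.07 and 9.94 at 72 hr. Those of myofiber-associated myoblasts were 9.71, 9.63, 9.64 and 9.18 at 48 hr and 9.02, 8.69, 8.71 and 8.84 at 72 hr. From the lowest, the order was myofiber-associated at 72 hr (mean 8.81, SD 0.15), myofiber-associated at 48 hr (9.54, SD 0.24) and both dispersed groups (9.98, SD 0.18, and 9.99, SD 0.24), and only the dispersed groups overlapped. At 72 hr Cdkn1c was 2.24-fold lower in myofiber-associated than in dispersed myoblasts (log2 change -1.17, 95% CI -1.42 to -0.91, adjusted p = 0.000167), and the call held in all 8 fits with 1 array left out. At 48 hr the change between cultures, -0.45, missed the threshold (adjusted p = 0.0350), although the groups did not overlap. The change with time in myofiber-associated myoblasts, -0.73, just missed the threshold (adjusted p = 0.0114). Without the pooled replicate 10+11, the lowest of the 48-hr arrays, it was -0.85 and passed (adjusted p = 0.00265). In the other 7 of 8 fits with 1 array left out it did not pass, with adjusted p up to 0.0398. Over the 4 48-hr arrays Cdkn1c was in the order of the adult fiber sums, lowest in replicate 10+11. At 72 hr it was not, with signals of 8.71, 9.02, 8.69 and 8.84 for fiber sums of 17.75, 18.23, 19.68 and 20.08. The part of fibers was not tested. In dispersed myoblasts the change was -0.01, and it was 0.01 under 75th percentile scaling. The difference of the changes was 0.72 (adjusted p = 0.0299), and without replicate 10+11 it was 0.83 and passed (adjusted p = 0.00567). In the other 15 of 16 fits with 1 array left out the difference did not pass, with adjusted p up to 0.0641.

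Rb1, the retinoblastoma gene and a pocket protein, was measured at 10 spots, of which 7 to 10 were used on an array, with an SD of 0.04 to 0.09 over their log2 signals. Its signals ranged from 10.61 to 11.46, and the groups overlapped in every comparison. In myofiber-associated myoblasts Rb1 changed by 0.42 with time (adjusted p = 0.0549), in dispersed myoblasts by -0.13 (adjusted p = 0.370), and the difference was -0.55 (adjusted p = 0.0419). Between cultures it changed by -0.31 at 48 hr (adjusted p = 0.0502) and by 0.25 at 72 hr (adjusted p = 0.120). Rbl2, which encodes p130, the pocket protein of quiescent cells, ranged from 6.90 to 7.91, and none of its comparisons passed the test. Between cultures at 48 hr Rbl2 changed by 0.47 (adjusted p = 0.0527), and without myofiber-associated replicate 10+11 by 0.61, past the threshold (adjusted p = 0.00809). In the other 7 of 8 fits with 1 array left out it did not pass, with adjusted p up to 0.132. At 72 hr Rbl2 changed by 0.20 (adjusted p = 0.139). Its changes with time were 0.05 in the dispersed culture (adjusted p = 0.758) and -0.22 in the other (adjusted p = 0.403), with a difference of 0.26 (adjusted p = 0.402). With 1 array left out, Rbl2 changed by -0.36 to -0.09 in myofiber-associated myoblasts, and the difference was 0.13 to 0.40.

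Rbl1 encodes p107, a pocket protein whose gene is known as an E2F target. The 250 bases before its start, at chr2:157204535-157204784 on the minus strand (RefSeq, build GRCm38.p6), are printed because Rbl1 was the pocket protein gene past the threshold, with capitals at matches to CAGCTG, an E-box, and TTTCGCGC, an E2F motif.
Rbl1: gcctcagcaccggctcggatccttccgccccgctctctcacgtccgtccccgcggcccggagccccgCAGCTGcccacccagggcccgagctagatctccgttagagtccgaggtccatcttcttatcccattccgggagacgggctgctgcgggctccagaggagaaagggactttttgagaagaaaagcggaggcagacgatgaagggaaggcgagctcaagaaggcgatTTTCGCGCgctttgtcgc
The E-box match lay at -183 to -178 and the E2F match at -18 to -11 from the start. Rbl1 signals were 11.02, 11.03, 11.02 and 11.07 in dispersed myoblasts at 48 hr and 11.17, 11.01, 10.90 and 10.99 at 72 hr. On the myofiber-associated arrays they were 10.37, 10.50, 10.38 and 10.68 at 48 hr and 11.07, 10.85, 11.03 and 10.58 at 72 hr. At 48 hr all the myofiber-associated arrays lay below all the dispersed ones, while at 72 hr the cultures overlapped. Between cultures at 48 hr Rbl1 was 1.47-fold lower in myofiber-associated myoblasts (log2 change -0.56, 95% CI -0.75 to -0.36, adjusted p = 0.000769). The second Rbl1 probe, which matches another transcript, changed by -0.22 in that comparison and missed the threshold (adjusted p over probes 0.177), and with the probes averaged the change was -0.39 (adjusted p = 0.0119). With time, Rbl1 changed by 0.40 in myofiber-associated myoblasts (adjusted p = 0.0602). Without replicate 4 at 72 hr the difference of the changes, -0.42 with all arrays (adjusted p = 0.0640), was -0.52 and passed (adjusted p = 0.00918). It passed in that 1 of 16 fits with 1 array left out, with adjusted p up to 0.131. Without that array the genes called in the difference went from 701 to 1770. The second probe changed by 0.21 with time in myofiber-associated myoblasts (adjusted p over probes 0.317), and its difference was -0.25 (0.277). In dispersed myoblasts Rbl1 changed by -0.02, and by 0.05 under 75th percentile scaling. Between cultures at 72 hr it changed by -0.14 (adjusted p = 0.378). Over the 8 myofiber-associated arrays, ordered from the lowest summed adult fiber signal to the highest, Rbl1 ran from high to low as well, with 2 pairs of neighbors exchanged, and the part of fibers in its change was not tested.

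Of the 9 members, 7 had a promoter window of 300 bases (250 before the start and 50 after it), 9 windows in all. The motifs searched on both strands were TTTCCCGC, TTTGGCGC and TTTCGCGC (E2F), TTTGAA (cell cycle homology region) and CAGCTG (E-box). An E2F motif was found in 2 of the 9 windows and in 1.84% of all 32851, with TTTCCCGC in 1.07%, TTTGGCGC in 0.514% and TTTCGCGC in 0.323% of them. TTTGAA was in 17.9% and CAGCTG in 16.3% of all windows. Besides the matches printed with the sequences, Rbl2 had TTTGAA at -201 to -196 from its start. The downstream Cdkn2a start and the windows of Cdkn2c, Cdkn2d and Cdkn1b held no match. A match is a description of the letters and not a site of binding.

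**Figure D3:**
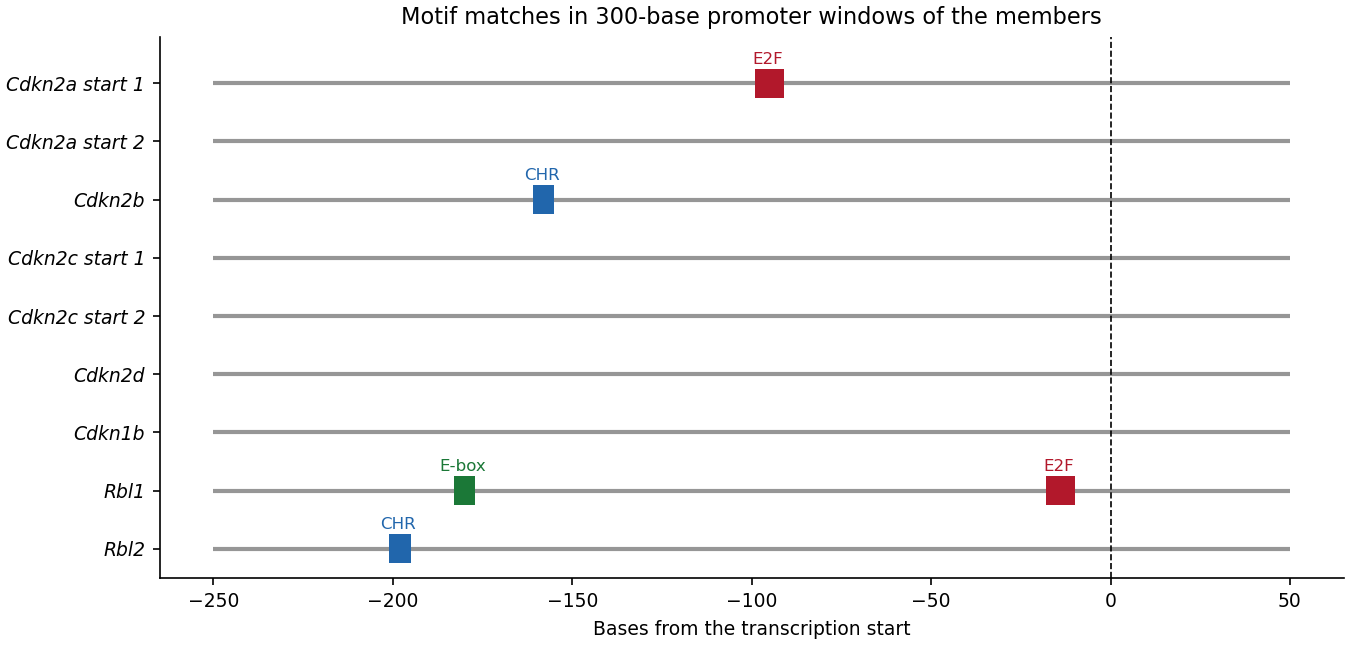
Motif matches in the 300-base windows of 7 members, by distance in bases from the transcription start, with CHR for the cell cycle homology region. An E2F motif was found at the upstream Cdkn2a start and at Rbl1, a match that 1.84% of all windows held.

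Of the whole list, 3 of the 9 members rose with time in dispersed myoblasts (Cdkn2a, Cdkn2b and Cdkn2d) and none fell, while 7.37% of the 20317 genes were called higher and 6.35% lower. At an unadjusted p under 0.05, limma gave 0 falls among the members. The median change of the members was 0.05, beside 0.02 over all genes. In myofiber-associated myoblasts the same 3 rose and 0 fell (1 fell at an unadjusted p under 0.05 in limma), while 3.74% of genes were called higher and 1.75% lower, and the medians were 0.42 and 0.06. In the difference of the changes 0 members were called higher (1 at an unadjusted p under 0.05 in limma) and 2 lower, Cdkn2a and Cdkn2b, beside 1.08% and 2.37% of genes. The median difference was -0.41 for the members and -0.07 over all genes. The difference shares its arrays with the changes with time, and so do the comparisons between cultures.

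Between cultures at 48 hr, 0 members were called higher (1 at an unadjusted p under 0.05 in limma) and 3 lower, Cdkn2a, Cdkn2b and Rbl1, beside 16.1% and 27% of genes. The median change was -0.31 for the members and -0.12 over all genes. At 72 hr 1 member was called higher (Cdkn2c) and 1 lower (Cdkn1c), beside 11.5% and 15.6% of genes, with medians of 0.25 and -0.02. Fits over the 28197 probes tested called 12.4% of probes in either direction with time in dispersed myoblasts, 5.42% in myofiber-associated myoblasts, 3.12% in the difference, 41.1% between cultures at 48 hr and 26% at 72 hr. The plot of changes shows each member with its confidence interval.

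**Figure D4:**
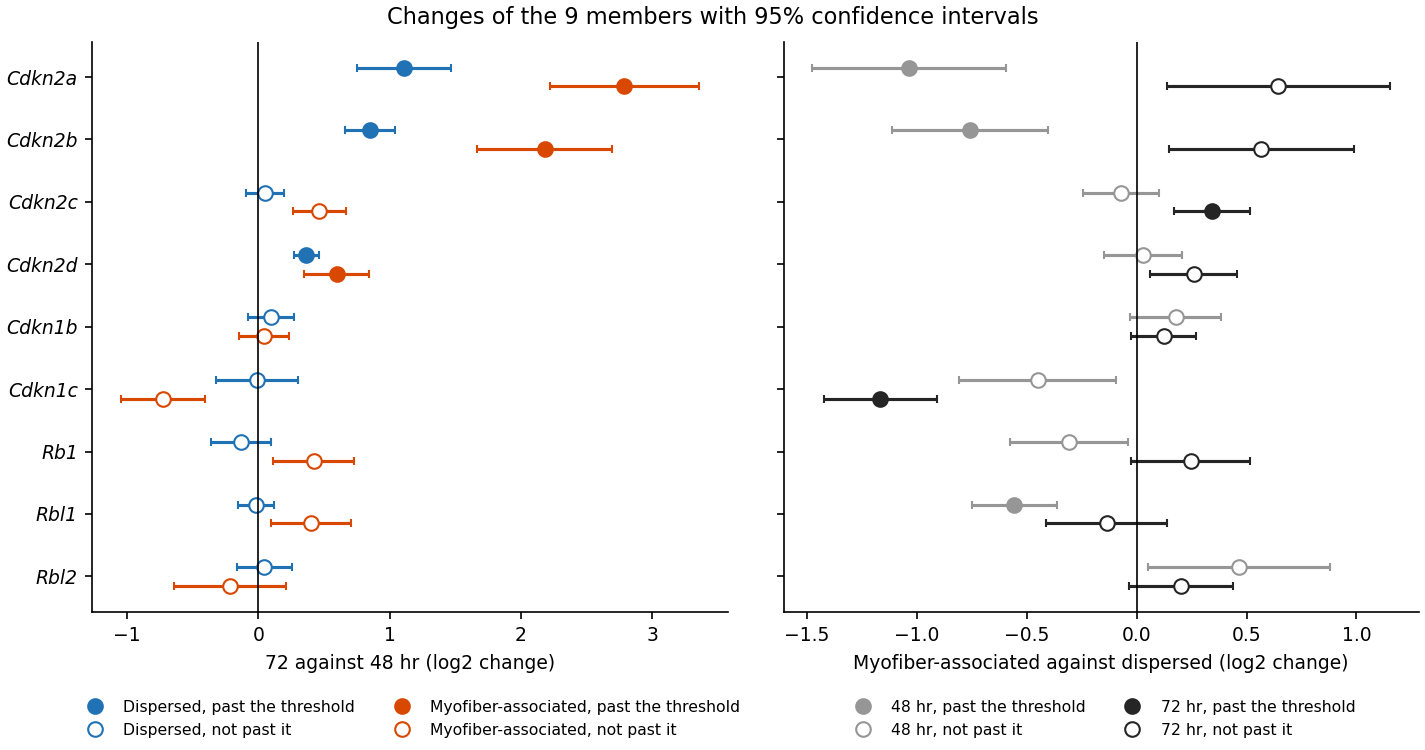
Log2 change of the 9 members from 48 to 72 hr in each culture (left) and between cultures at each time (right), with 95% confidence intervals and filled points past an adjusted p of 0.01. Cdkn2a changed by 1.11 and 2.79 with time, and Cdkn1c by -1.17 between cultures at 72 hr.

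Over the 16 arrays Cdkn2a and Cdkn2b had a Pearson's r of 0.988, a description that follows the 4 groups. Cdkn2b was the gene most like Cdkn2a among 12722 genes compared, followed by Kctd12 (0.984) and Slc38a6 (0.981). After Cdkn2a, the genes most like Cdkn2b were Dpysl3 (0.986) and Chn1 (0.985). For Cdkn2d they were Tmem53 (0.966), Tmem119 (0.955) and Tppp3 (0.953). Among the other pairs of members, the highest r were those of Cdkn2b with Cdkn2d (0.884), Cdkn2a with Cdkn2d (0.845) and Cdkn2b with Cdkn2c (0.824), and the lowest those of Rbl1 with Rbl2 (-0.778) and Cdkn1c with Cdkn2c (-0.694).

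Genes that act with the members were read as lists. Of 13 G1 cyclins and their kinases, 2 rose in dispersed myoblasts (Ccnd1 by 0.37 and Ccnd3 by 0.51) and 1 in myofiber-associated myoblasts (Ccnd3 by 1.71), and the medians were 0.12 and 0.37. Ccnd3, a D-type cyclin that INK4 proteins oppose, had mean signals of 14.61 and 15.11 in the dispersed culture and 13.78 and 15.49 in the myofiber-associated one, at 48 and 72 hr. It differed in its change between cultures by -1.20 (adjusted p = 0.00283), the list's 1 call in the difference. Between cultures 10 of the 13 were lower at 48 hr, with Ccnd2 (-1.41) and Ccne2 (-1.26) the lowest, and 4 at 72 hr. Of 7 genes of p27 ubiquitin ligases, 1 passed the test with time, Skp2. Skp2 rose by 0.30 in the dispersed culture and by 1.18 in the myofiber-associated one, with a difference of -0.87 (adjusted p = 0.00325). Between cultures 2 of the 7 were higher and 2 lower at 48 hr, with Rnf123 at 1.62 and Skp2 at -1.49, and 1 was higher and 1 lower at 72 hr, again Rnf123 (0.78) and Skp2 (-0.62). The median of the 7 was 0.07 with time in the dispersed culture and 0.01 in the myofiber-associated one.

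Of 14 Polycomb and other regulators of the Cdkn2a locus, 1 rose (Cbx8, 0.63) and 4 fell in dispersed myoblasts, with Tbx2 (-1.22), Ets1 (-0.56) and Ets2 (-0.53) the largest falls, and the median was 0.00. In myofiber-associated myoblasts 1 rose, Tbx2 (1.61), and 0 fell (4 at an unadjusted p under 0.05 in limma), with a median of 0.18. Tbx2, known as a repressor of the locus in other cells, had mean signals of 8.39 and 7.18 in the dispersed culture and 6.55 and 8.16 in the myofiber-associated one, at 48 and 72 hr. Its changes thus had opposite signs, with a difference of -2.83 (adjusted p = 0.00046). Between cultures 2 of the 14 were higher and 6 lower at 48 hr, with Cbx7 at 1.82 and Tbx2 at -1.85, and 4 were lower at 72 hr, with Cbx8 at -1.50. Of 8 tested neighbors of Cdkn1c in its imprinted region, H19 rose in dispersed myoblasts (1.79) and Cd81 in myofiber-associated myoblasts (0.64), and 0 fell (2 and 1 at an unadjusted p under 0.05 in limma). Between cultures at 48 hr H19 was higher in myofiber-associated myoblasts (2.60) and 3 neighbors were lower, Cd81 (-0.59), Tssc4 (-0.57) and Kcnq1, with a median of -0.58. At 72 hr H19 was higher (1.31) and Kcnq1 lower, with a median of 0.05, and Kcnq1 was well above background on 2 of the 4 myofiber-associated arrays. The median of the 8 with time was 0.06 in the dispersed culture and 0.44 in the myofiber-associated one.

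Downstream of the pocket proteins, 0 of 10 E2F and DP factors passed the test with time in either culture. At an unadjusted p under 0.05 limma gave 5 rises and 1 fall in dispersed and 3 rises and 2 falls in myofiber-associated myoblasts, and the medians were 0.11 and 0.07. Between cultures 2 of these factors were higher (E2f6, and E2f4 at 1.58) and 4 lower at 48 hr, with E2f2 (-1.05), E2f8 (-0.92) and E2f7 (-0.86) the lowest, and 3 were lower at 72 hr, E2f7 (-0.77), E2f5 (-0.63) and E2f8 (-0.47). Of 7 genes of the MuvB core, which binds p130 or p107, and of its MYB and FOXM1 partners, 0 passed with time. Limma gave 2 rises and 1 fall in dispersed and 1 rise in myofiber-associated myoblasts at an unadjusted p under 0.05. The medians were 0.04 and 0.07. Between cultures Lin37 was higher at 48 hr (0.70) and 72 hr (0.63), Lin9 was lower at both (-0.67 and -0.57) and Mybl2 at 48 hr (-0.76). Of 20 E2F target genes of S phase, 1 fell in dispersed myoblasts (Mcm5, -0.34) and 0 passed in myofiber-associated myoblasts, where limma gave 4 rises at an unadjusted p under 0.05. Their median was 0.03 in the dispersed culture and 0.24 in the myofiber-associated one, beside 0.02 and 0.06 over all genes. Between cultures 2 of the 20 were lower at 48 hr, Rrm1 (-0.65) and Cdc45 (-0.50), and at 72 hr Rrm2 was higher (0.38) and Orc1 lower (-0.78). Of the 2 CDK inhibitors outside the 9 members, Cdkn1a passed no test, and Cdkn3 was lower in myofiber-associated myoblasts at 48 hr (-0.66) and 72 hr (-0.40).

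**Figure D5:**
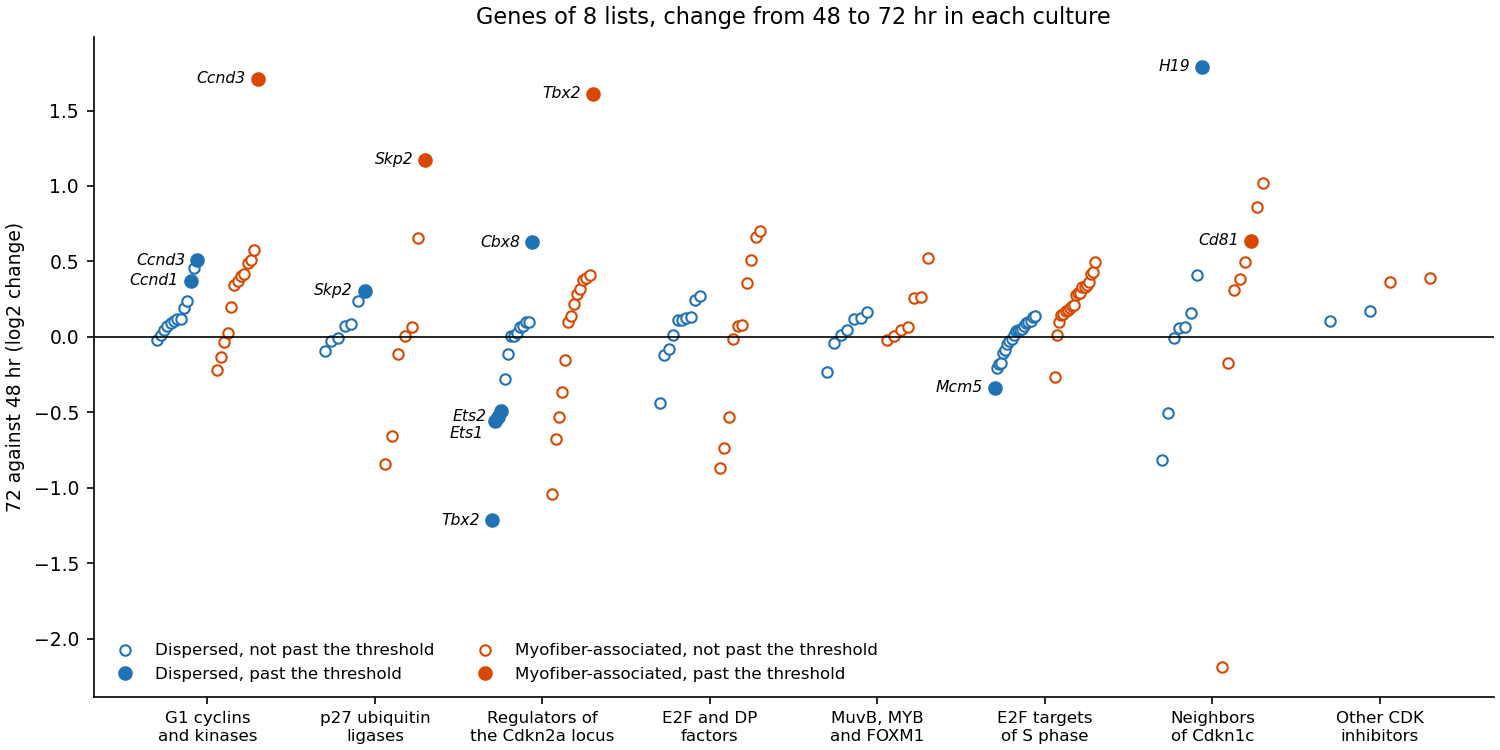
Log2 change from 48 to 72 hr of the genes of 8 lists, in dispersed and myofiber-associated myoblasts, with 1 point for each gene and filled points past an adjusted p of 0.01, labeled for at most 3 in each direction. Tbx2 changed by -1.22 in the dispersed culture and 1.61 in the myofiber-associated one, and Ccnd3 by 0.51 and 1.71.

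Markers of other cells moved with time as well. Of 10 endothelial markers, all well above background on all 16 arrays, 9 fell in the dispersed culture and 6 in the myofiber-associated one. The log2 of their summed signal was 16.90, 17.07, 17.17 and 17.34 in dispersed myoblasts at 48 hr and 15.45, 15.72, 15.98 and 15.80 at 72 hr, with the brightest probe that of Egfl7. In myofiber-associated myoblasts it was 14.65, 14.79, 14.13 and 15.31 at 48 hr and 13.55, 13.73, 13.43 and 13.54 at 72 hr, with the brightest probe that of Egfl7 and then Kdr. In both cultures the 72-hr arrays lay below the 48-hr ones. Of 9 leukocyte markers tested, 4 fell in the dispersed culture and 0 in the myofiber-associated one (3 at an unadjusted p under 0.05 in limma), and the log2 sum had group means of 14.30 and 14.04, and of 14.64 and 14.13, with the brightest probe that of Itgam or Cd68 and Ptprc, Lyz2 or Emr1 not well above background on 4 arrays. Of 8 fibroblast markers 1 fell in the dispersed culture and 3 in the myofiber-associated one, Dpt was not well above background on 2 arrays, and the sum, with the brightest probe that of Dcn, had group means of 16.68 and 16.27, and of 16.74 and 15.70. Of 8 pericyte and smooth muscle markers, 3 fell in dispersed myoblasts, and 1 fell and 1 rose in myofiber-associated myoblasts, with group means of 16.01 and 16.19, and of 13.45 and 13.74, the brightest probe in dispersed myoblasts that of Acta2, and Myh11 or Kcnj8 not well above background on 5 arrays. The part of these cells in the changes of the members was not tested.

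Of 10 muscle differentiation genes tested, 5 rose and 2 fell in dispersed myoblasts and 2 rose in myofiber-associated ones. Myog, which drives differentiation, had mean signals of 6.05 and 9.96 in the dispersed culture and 14.30 and 13.66 in the myofiber-associated one, at 48 and 72 hr. The log2 of the list's summed signal was 13.88 to 14.77 and 13.78 to 14.20 in dispersed myoblasts, with the brightest probe that of Myh8, Acta1 or Tnnt2, and 19.54 to 19.79 and 17.69 to 19.57 in myofiber-associated myoblasts, with that of Myh8. Myh3 was not well above background on any of the 4 myofiber-associated 48-hr arrays. In myofiber-associated replicates 1 to 4 at 72 hr the list's sums were 18.05, 19.19, 17.69 and 19.57. They stood in the order of the adult fiber sums, 18.23, 19.68, 17.75 and 20.08. Myh8 had group means of 12.62 and 10.4 (dispersed) and 18.57 and 17.4 (myofiber-associated). Those of the adult fiber gene Myh4 were 12.56 and 10.3, and 18.32 and 17.3. The part of fibers in the signals of these genes was not tested. Of the 8 myoblast markers, 3 rose with time in each culture, Des by 0.72, Chrna1 by 0.49 and Myf5 by 0.31 in dispersed myoblasts, and Pax7 by 1.68, Chrna1 by 1.37 and Cdh15 by 1.32 in myofiber-associated myoblasts.

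The lists of E2F and DP factors, E2F targets, MuvB and partner genes and imprinted neighbors held 0 calls in the difference of the changes. Limma at an unadjusted p under 0.05 gave 5, 6, 2 and 4. The lists of other CDK inhibitors, leukocytes and adult fibers held 0 calls there too, with 0, 0 and 3 at that unadjusted p. Between cultures the adult fiber markers were higher in myofiber-associated myoblasts, 10 of 10 at 48 hr (median 6.14) and 9 of 10 at 72 hr (5.51). Of the endothelial markers 9 were lower at each time (medians -2.71 and -3.06). Of the pericyte and smooth muscle markers 4 and 2 were lower (-1.25 and -0.38), and of the fibroblast markers 2 and 5 (-0.11 and -1.07), with 1 higher at 72 hr. Of the leukocyte markers 5 and 4 were lower and 1 higher at each time (-1.50 and -1.13). Muscle differentiation genes were higher in 7 and 6 cases and lower in 1 and 0 (3.67 and 2.39, with 0 lower in limma at an unadjusted p under 0.05 at 72 hr). The part of adult fibers in the signals of these genes was not tested. Of the myoblast markers 1 was higher and 4 lower at 48 hr (median -0.59), and 2 were higher and 0 lower at 72 hr (0.41, with 0 lower in limma at an unadjusted p under 0.05).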

How the data were processed

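One-color Agilent mouse arrays measured RNA of 4 groups, with 4 arrays for each. Per the file headers, the scanner software gave the intensity of each spot, background-subtracted and detrended, with no scaling between arrays. The series table that the authors deposited gives log2 ratios between 72-hr arrays and the 48-hr mean in the same culture, made with limma (version not given) by loess and quantile normalization, and it served as an alternative only.

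From the processed intensity, log2 signals were computed after spots called outliers by the scanner software were dropped. Loess normalization (span 0.3, 4 iterations) used the mean 48-hr array of the culture as reference, and quantile normalization over 16 arrays followed. Identical probes were averaged, the brightest probe stood for a gene, and a gene needed a median log2 signal of 5 or more. For 1849 spots the gene name differed between the design versions of the slides, and the names of slide 1 were used. Spots well above background made up 54.0% to 63.5% of an array.

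Groups were compared with limma, two-sided, on 8 arrays, and the difference of the changes on all 16 arrays as the interaction of culture and time, with Benjamini-Hochberg adjustment and a threshold of 0.01. The smallest p of an exact permutation of 4 against 4 arrays is 0.0286. The same fits were made over all probes. The members and lists were chosen with earlier results of these data known. The 9 members are named in every comparison. Genes of the lists could be named when past the threshold, at most 3 with the largest rise and 3 with the largest fall per list and comparison, and lists of at most 3 genes in full. Not all that the rule allows are named. For members past the threshold with time, the 3 genes with the highest Pearson's r are named. Results that need an item withheld for evaluation were left out. Levels, overlaps and likeness were computed on the normalized log2 signals. Alternatives were normexp background correction (offset 50), 75th percentile scaling, quantile normalization alone, no filter, the mean of all probes, a filter on signal well above background, 1 fit of all arrays, the slide row as a block, the authors' table, a threshold of 0.05, each array left out in turn, and 1 chosen after seeing the data, without a pair of arrays.

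Promoter windows and starts came from RefSeq (build GRCm38.p6). Fits used R 4.3.3 with limma 3.58.1 and read files with data.table (version 1.17.8). Promoters, ranges and plots used Python 3.11.15 with numpy 2.4.6, pandas (version 2.3.3) and matplotlib (version 3.10.9).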

Additional observations from a re-analysis of the deposited data

Results flagged for a closer look

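Of 52 groups of 4 arrays, 1 held an array far from the others: Cdkn1c in myofiber-associated myoblasts at 48 hr, where the pooled replicate 10+11 had a signal of 9.18. The same array had the highest sums of its group for fibroblast markers, at 17.54 beside 16.53, 16.29 and 16.61, and for endothelial markers, at 15.31 beside 14.65, 14.79 and 14.13. It had the lowest sums of adult fiber markers, at 20.16 beside 20.78, 20.43 and 20.72, and of myoblast markers, at 17.51 beside 17.84, 17.86 and 17.97. The part of these cells in its Cdkn1c signal was not tested. Chance gives about 1 such array in 20 groups.

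The change from 48 to 72 hr differed between cultures (limma interaction over 16 arrays, adjusted p under 0.01) for 2 members, Cdkn2a by -1.68 and Cdkn2b by -1.33, dispersed minus myofiber-associated. It also differed for genes of the lists, and the differences were -1.20 for Ccnd3, -0.87 for Skp2, -2.83 for Tbx2, -1.49 for Pax7, -0.88 for Chrna1, 4.55 for Myog, 2.90 for Actc1, 2.33 for Emcn, -1.63 for Ly6a, 1.87 for Pdgfra and -1.71 for Notch3. The part of adult fibers or of other cells in these differences was not tested.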

How the results depend on the processing

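No paired analysis was possible because the groups compared share fewer than 2 replicate numbers. Of 432 changes of single members under the alternatives that kept each array or left out the pair of myofiber-associated 72-hr replicates 2 and 4 (chosen after seeing the data), 394 kept their direction and their side of the threshold, 22 came past it, 9 fell short of it and 7 changed direction. Of 432 with 1 array left out, 379 kept both, 7 came past it, 37 fell short and 9 changed direction.

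The rises of Cdkn2a and Cdkn2b with time passed in all of these fits in both cultures. With 1 array left out, the number of members called was 3 in dispersed myoblasts in all 8 fits, 2 to 3 in myofiber-associated myoblasts, 0 to 4 in the difference, 2 to 4 between cultures at 48 hr and 1 to 3 at 72 hr. The number of genes called was 1665 to 2505 in dispersed (2789 with all arrays; lowest without replicate 2), 232 to 1990 in myofiber-associated myoblasts (1114; lowest without 48-hr replicate 7, highest without 10+11), 295 to 2368 in the difference (701; lowest without dispersed replicate 6, highest without 10+11), 6375 to 11144 at 48 hr (8772) and 3312 to 5627 at 72 hr (5513; lowest without dispersed replicate 7).

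The number of members called in myofiber-associated myoblasts, 3 with the settings of the report, was 2 with no filter, with the filter on signal well above background and with the slide row as a block, where Cdkn2d had adjusted p of 0.0175, 0.0115 and 0.0196. It was 4 with normexp, 5 with the authors' table and at a threshold of 0.05, and 6 in 1 fit of all arrays. In the difference (2 called) it was 0 with no filter, where more genes were tested (adjusted p 0.0104 for Cdkn2a and 0.0117 for Cdkn2b), 1 with the slide row as a block (adjusted p 0.0111 for Cdkn2b), 3 with normexp, 4 with the authors' table and without the pair of arrays, and 5 at 0.05. At 48 hr (3 called) it was 4 at 0.05, and it was 3 with the probes averaged, where Cdkn1b was called lower and Rbl1 (-0.39, adjusted p = 0.0119) was not called. At 72 hr (2 called) it was 1 with 75th percentile scaling and with no filter, where Cdkn2c had adjusted p of 0.0125 and 0.0134, 4 without the pair and 5 at 0.05. The authors' table holds ratios of 72-hr arrays to the 48-hr mean, so a fit on it leaves out the spread among the 48-hr arrays. The cause was not tested except where stated.

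In dispersed myoblasts 1498 genes were called higher and 1291 lower with the settings of the report, and 1879 and 1204 under 75th percentile scaling. In 1 fit of all arrays 393 were higher and 606 lower, so the balance turned there. In all, genes called went from 2789 to 999 in 1 fit of all arrays and 5457 at 0.05 in dispersed myoblasts. In myofiber-associated myoblasts they went from 1114 to 467 with no filter, 570 with the slide row, 5782 in 1 fit, 3787 with the authors' table, 4589 at 0.05 and 2005 without the pair. In the difference they went from 701 to 411 with no filter, 3823 with the authors' table, 3128 at 0.05 and 3527 without the pair, and at 72 hr from 5513 to 9303 at 0.05. The median over all genes between cultures at 72 hr was -0.0226, and it was 0.0103 under 75th percentile scaling and 0.00427 without the pair. With time in dispersed myoblasts the median went from 0.0223 to 0.0561 under that scaling. With no filter it went from 0.0626 to 0.0193 in myofiber-associated myoblasts and from -0.0676 to -0.0299 in the difference. The median over all genes between cultures at 48 hr was -0.12 and went to -0.05 with no filter. It was -0.02 with normexp, whose offset left all 34836 genes above the filter, so background correction and filter changed together there.

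Some changes reversed direction, and the cause was not tested. In dispersed myoblasts Cdkn1c changed by 0.00586 under 75th percentile scaling, and by 0.0642, 0.0666, 0.00284 and 0.0484 without replicates 5, 2, 8 and 4. Rbl1 changed by 0.0459 under that scaling and 0.0212 without replicate 7. Rbl2 changed by -0.0175 with the authors' table, and by -0.00903 and -0.00530 without replicates 6 and 1. Cdkn1b, with the probes averaged, was -0.27 in the difference, -0.43 at 48 hr (adjusted p = 0.000934) and -0.15 at 72 hr, and without dispersed replicate 1 its difference was -0.00388. With 1 array left out the ranges were -0.0917 to 0.0666 for Cdkn1c, -0.0688 to 0.0212 for Rbl1 and -0.00903 to 0.111 for Rbl2 in dispersed myoblasts, -0.00388 to 0.0975 for Cdkn1b in the difference, and -0.0165 to 0.0623 for Cdkn2d at 48 hr. Without myofiber-associated replicate 7 Cdkn2d changed by -0.0165 between cultures at 48 hr, and without the pair Rbl1 changed by 0.0314 at 72 hr.

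Signal over background limits small changes: a gene dim in 1 group has its fold set by background there, and with 4 arrays per group a change under the spread between replicates cannot be told from 0. All members were well above background, so for them the limit is the spread between replicates.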
